A study of Bombyx mori with 3 samples.

Results

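The fibroin-rich cells of the silkworm silk gland at day 1 of the first instar (1L1D) were 1064 of 4339 kept barcodes of that library, or 24.5% (exact 95% interval 23.2 to 25.8%, counting error only). A barcode was kept when its mitochondrial share was at most 30% of its unique molecular identifiers (UMIs, counts of captured mRNA molecules) and when its ratio of UMIs to detected genes lay within 2 SD of the library mean. A kept barcode was a member when the rows FIBH, FIBH-2, Fib-l and P25 together made at least 8% of its UMIs. These values chose the members, so the fibroin levels are given as a description. The other 3275 kept barcodes of the same library were the comparison. The series holds 16344 kept barcodes of 18864 deposited in all.

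Silk glands of the Nistari strain of Bombyx mori were dissociated at 8 days post-egg laying (E8D), at 1L1D and at the first larval molting (1LM), and each library was made from a mixture of about 2000 intact glands with a 3' droplet kit. The labels name no drug or genetic change, and they carry the entry "In vitro expansion" for every library, which the sources used here do not explain beside the dissection of intact glands. With 1 library per stage there is no replicate, so no test was made. Intervals are exact, cover counting error only, and treat the summed UMIs of a group as 1 count. A single mixture of glands limits the data to the average of those animals, and fewer cells of a type and less RNA per cell cannot be told apart in summed UMIs.

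The posterior silk gland secretes fibroin, the core of the silk fibre. The fibroin heavy chain (FIBH) is joined by a disulfide bond to the light chain (Fib-l), and the glycoprotein P25 holds several such pairs in a secreted complex. The heavy chain is built almost wholly from glycine, alanine and serine repeats, enters the endoplasmic reticulum (ER) through the Sec61 channel, and leaves it in coated vesicles. Sericins, the glue of the fibre, come from the middle silk gland. The study divided the cells into types such as fibroin protein-synthesizing (FPS), sericin protein-synthesizing (SPS), liquid silk fibrosis (LSF) and traction forces (TR) cells.

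The members held 875409 fibroin UMIs among 4395683 UMIs, or 19.92%, against 140928 of 14150456 UMIs, or 0.996%, in the other kept barcodes. Within the members, FIBH made 13.97% of all UMIs (614073 UMIs), Fib-l 5.85% (256969 UMIs), P25 0.0550% (2417 UMIs) and the further row FIBH-2 0.0444% (1950 UMIs). In the other kept barcodes the same rows made 0.515%, 0.471%, 0.00784% and 0.00215%. Every member had a FIBH and a Fib-l UMI, and 70.9% had a P25 UMI (754 of 1064). Among the other barcodes 99.9% had a FIBH UMI and 20.37% a P25 UMI, so detection of FIBH alone did not separate the groups.

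The fibroin share ran without a gap across the threshold. It had a median of 15.5% in members, with a range of 8.00 to 57.9%, against a median of 1.20% in the other kept barcodes. Just inside the threshold, the 94 barcodes from 8 to 9% held a median of 1654.5 UMIs and 382 genes. Just outside it, the 108 barcodes from 7 to 8% held a median of 1526.5 UMIs and 348.5 genes. The same rule found 0 members among 4880 kept barcodes at E8D, where the highest share was 5.07% (exact upper limit 0.0756% of barcodes, or 0.0615% taken as 3 counts). At 1LM it found 150 of 7125 (2.11%, interval 1.78 to 2.47%), none above 15.6%.

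**Figure D1:**
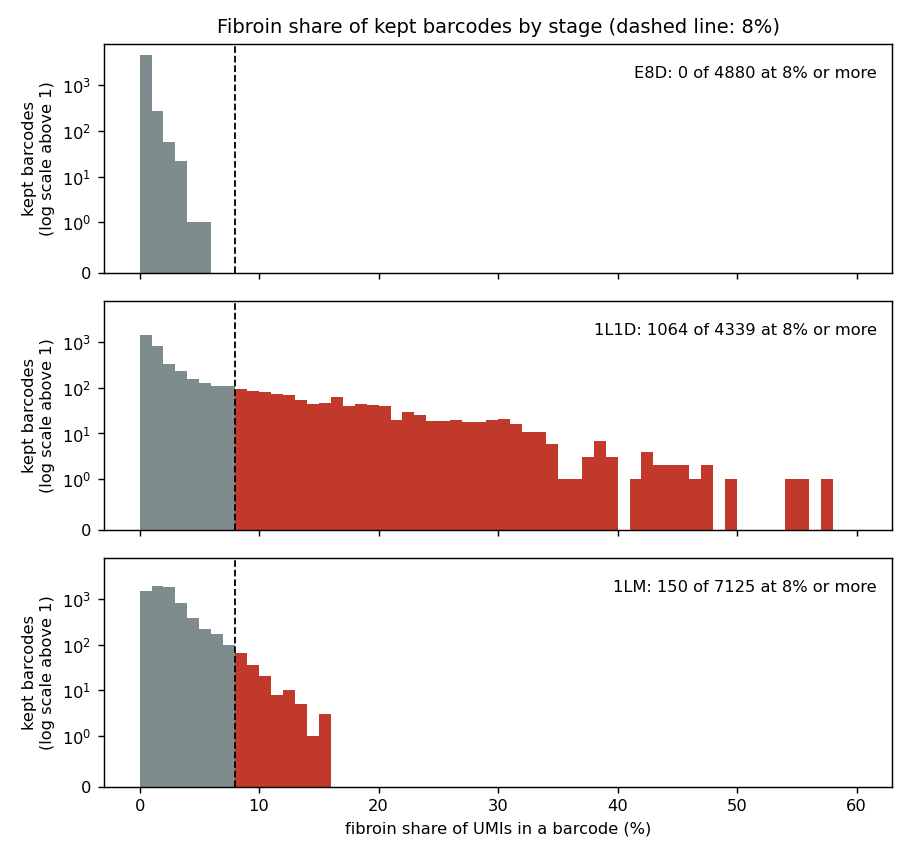
Number of kept barcodes (y axis, logarithmic above 1) by fibroin share of UMIs (x axis, in percent, bins of 1 percentage point) at E8D, 1L1D and 1LM, with members in red. The 1L1D distribution crosses the 8% line without a gap and reaches 57.9%, while E8D stops at 5.07% and 1LM at 15.6%.

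A low number of fibroin UMIs was also found in barcodes that carried markers of another cell type. TR marker barcodes, defined by at least 3 UMIs of the 6 TR marker genes, held a median of 18 fibroin UMIs at a median depth of 11712 UMIs when members were left out (431 barcodes, 95th percentile 55 UMIs). Members held at least 95 fibroin UMIs, with a median of 374.5 at a median depth of 2218 UMIs. Among the other kept barcodes the median number of fibroin UMIs was 25, 25, 22 and 19 in classes of rising depth (median depths 1239, 1710, 3003 and 10692.5 UMIs). The median count of these barcodes was thus similar in every depth class, but its 95th percentile was 84, 109.3, 178.3 and 406.85 UMIs, so some deep barcodes held more. In members it was 154, 250, 498.5 and 1824.5 UMIs in the same depth classes, whose limits were the quartiles of member depth, and the 8% rule itself ties this count to depth. Among the 983 kept barcodes with at least 5000 UMIs, 254 were members, 671 had a share under 2%, and only 58 lay between 2 and 8%.

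**Figure D2:**
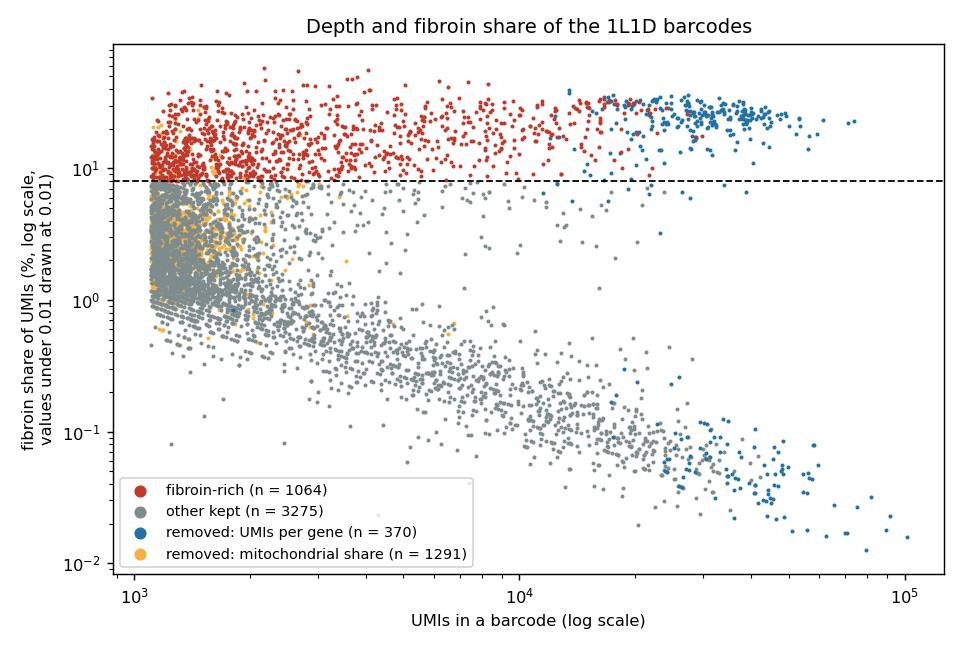
Fibroin share of UMIs (y axis, percent, logarithmic) against UMIs (x axis, logarithmic) for every deposited barcode of the 1L1D library, coloured as fibroin-rich, other kept, removed for the ratio of UMIs to genes, or removed for the mitochondrial share. Deep barcodes form a band above 8% and a sloping band well under 1%, and 251 of the 370 barcodes removed by the ratio lie above 8%.

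The ratio filter took away many deep fibroin-rich barcodes. It removed 370 barcodes, all for a high ratio, and 251 of these had at least 8% fibroin. They held a median of 29220 UMIs and a median fibroin share of 24.99%, and their 1851825 fibroin UMIs exceeded the 875409 of the members. A further 53 barcodes with at least 8% fibroin were removed for their mitochondrial share. The depth of those 53 was not compared. The members thus lack many deep fibroin-rich barcodes of this library, but the depths overlapped. The 251 barcodes began at 12006 UMIs, and members reached 29687 UMIs. Members were somewhat deeper than the other kept barcodes (median 2218 against 1746 UMIs, and 456 against 444 genes) with a lower median mitochondrial share (12.3% against 16.8%). The deepest 5% of members held 22.4% of member UMIs, so sums are weighted to deep barcodes. Likely doublets were marked in 76 members (7.14%) and 184 other barcodes (5.62%). The 1L1D library shared 12 barcode sequences with each of the other libraries, of which 1 member matched a kept 1LM barcode and 1 a kept E8D barcode.

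The balance of the fibroin transcripts differed within the members. Members held 2.39 FIBH UMIs per Fib-l UMI (interval 2.38 to 2.40), against 1.10 in the other kept barcodes (1.08 to 1.11). In classes of fibroin share this ratio was 1.63 under 1%, 1.47 from 1 to 2%, 0.962 from 2 to 5%, 0.927 from 5 to 8%, 1.61 from 8 to 12%, 2.10 from 12 to 20%, 2.70 from 20 to 30%, and 2.83 from 30% up. Among these classes it was lowest from 5 to 8% and highest in the richest members. The barcodes from 7 to 8% alone held 1.04 (1.01 to 1.07). TR marker barcodes that were not members held 1.46 FIBH UMIs per Fib-l UMI (1.41 to 1.51), and the whole deposited library held 2.39. P25 went the other way, with 9.41 UMIs per 1000 Fib-l UMIs in members (interval 9.03 to 9.79), against 16.7 in the other kept barcodes (15.7 to 17.7). At 1LM the members held 1.74 FIBH UMIs per Fib-l UMI, against 1.21 in the other kept barcodes. All E8D barcodes together held 0.0576. The fibroin counts themselves defined these classes, so the ratios describe them and support nothing else.

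All further values leave the 4 fibroin rows out of the denominator, as UMIs of a gene per 1000000 of the other UMIs (CPM), so that fibroin itself cannot dilute the rest. This left 3520274 UMIs in members and 14009528 UMIs in the other kept barcodes. A log2 ratio is always members over the other kept barcodes, and a gene counts as higher or lower when it differed at least 2-fold with an interval that leaves out 0. Of 5295 genes with at least 100 UMIs in 1 of the groups, 205 were higher (3.87%) and 983 lower (18.6%). The median log2 ratio over them was -0.17. A gene reaches the minimum more easily through the larger group, which favours calls of lower. Sums give deep barcodes more weight, so the mean over barcodes was taken too: 106 genes were higher (2%) and 769 lower (14.5%) in both measures.

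The label of the members was checked against marker genes, which the study picked from these same libraries. Of the 4 FPS markers, 3 were higher, and their summed level was 0.172% of UMIs in members, against 0.0379% in the other kept barcodes. The uncharacterized LOC101746861 stood at 911 against 97.1 CPM (log2 ratio 3.23, interval 3.14 to 3.32). LOC101745332 stood at 231 against 51.1 CPM, and signal sequence receptor alpha (LOC778461) at 457 against 131 CPM. The immunophilin Fkbp45 did not pass, with 440 against 1401 UMIs and a log2 ratio of 0.32. Of the 5 SPS markers 4 were lower, with a summed level of 0.0709% against 0.153%, and all 5 LSF and all 6 TR markers were lower. TR markers summed to 0.000909% in members (32 UMIs), against 0.0245% in the other kept barcodes (3438 UMIs), and no TR marker was at 0 in members. Each of the 6 TR markers thus reached the minimum only through the other kept barcodes, which favours calls of lower, so these calls are a description. At least 3 UMIs of TR markers were found in 2 members, of LSF markers but not TR in 35 members (3.29%), and of SPS markers but neither of the others in 239 members (22.5%). Among the other kept barcodes these counts were 431 (13.16%), 819 (25.01%) and 863 (26.35%), in the same order. The markers thus separated the members clearly from TR barcodes. SPS markers were counted only in barcodes without TR and LSF markers, which left out far more of the other kept barcodes than of the members. The SPS shares of 22.5% and 26.35% therefore do not show how well these markers separated the groups. Members made 21.7% of the barcodes with SPS markers, against 40.4% of the barcodes with none of these markers. The summed SPS level was also lower in members.

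Sericin transcripts were low but present. The sericin 1-like gene LOC101740082 had 200 UMIs in members, at 56.8 CPM, against 12956 UMIs, at 925 CPM, in the other kept barcodes (log2 ratio -4.02, interval -4.23 to -3.82). Ser2, which codes for sericin 2, stood at 638 against 2902 CPM (-2.18, interval -2.25 to -2.12). After every barcode was thinned to 500 UMIs, 18.3% of members and 24.3% of the other kept barcodes had a Ser2 UMI, beside 2.32% of the TR marker barcodes (37.2%, 44.1% and 29.2% unthinned, at median depths of 2218, 1746 and 11712 UMIs). Ser3 had only 1 UMI against 53, and a further sericin 1-like gene (LOC105842827) 0 against 11. The seroins, small secreted proteins of silk with antimicrobial activity, did not pass: seroin 1 (LOC692598) stood at 8756 against 5463 CPM and a seroin-like gene (LOC105842464) at 6156 against 3896 CPM.

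Some genes for entry of proteins into the ER were higher in members, among them parts of the Sec61 channel and its associated complex. Of the 14 genes for translocation and signal peptide removal, all reached the minimum, 6 were higher, 8 were neither and none was lower. The median log2 ratio was 0.93, beside a median of -0.17 and a share of 3.87% higher over all genes. Sec61alpha, the pore of the channel, stood at 881 CPM in members, against 213 CPM in the other kept barcodes (2.05, interval 1.98 to 2.12). The 3 translocon-associated subunits LOC778461, LOC732862 and LOC100101160 had log2 ratios of 1.80, 1.65 and 1.53. Sec61 beta (LOC733070) reached 1.03 and the small translocon protein LOC692773 reached 1.35. Sec62 (LOC101746557), used for short proteins after translation, was at 111 against 167 CPM, and the signal peptidase subunits lay between 0.10 and 0.89.

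Chaperones of the ER did not move together. Among 9 of 12 listed folding genes that reached the minimum, 1 was higher and 3 lower, with a median of -0.17. Over all genes 3.87% were higher and 18.6% lower, with the same median of -0.17. On so few genes the counts describe single genes and no shift of the list. Pdi, which forms disulfide bonds, stood at 2267 against 465 CPM (2.29, interval 2.24 to 2.33). The Hsp70-type chaperone of the ER, listed as HSP70, stood at 64.2 against 141 CPM (-1.13), calreticulin (Crt) at 67.0 against 146 CPM (-1.12), and the immunophilin Fkbp13 at 2.84 against 25.3 CPM (-3.16, interval -4.23 to -2.26). In the mean over barcodes HSP70 and Crt were within 2-fold, at -0.54 and -0.49, and DnaJ-3 joined Pdi as higher, at 1.08. Pdi was thus the folding gene with the largest ratio. After thinning, 59.4% of members had a Pdi UMI, against 23.0% of the other kept barcodes and 14.2% of TR marker barcodes (92.4%, 65.6% and 93.5% unthinned).

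Of the 16 genes for transport from the ER to the Golgi, all reached the minimum, 4 were higher and none lower, and the median was 0.55. The shares over all genes were 3.87% higher and 18.6% lower. With CPM of all UMIs 1 of 16 was higher, as was 1 of 16 without TR and LSF marker barcodes. The 4 were the p24 family members Tmed5 (LOC101740180, 582 against 113 CPM, 2.36 with interval 2.27 to 2.46), eca (LOC733126, 1.14) and Tmed2 (LOC101737070, 1.08), and the receptor Surf4 (LOC692846, 1.03). None of the coat subunits COPA, COPB, COPB2, COPD, COPE and COPZ passed 2-fold, with log2 ratios from -0.15 to 0.72. ERGIC-53 (LOC101737155), a lectin and cargo receptor for glycoproteins, stood at 112 against 144 CPM.

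Ribosomal proteins took 44.7% of the UMIs outside fibroin in members, against 22.9% in the other kept barcodes. Of 73 genes that reached the minimum, 72 had a ratio above 0, 26 were higher and none lower, beside 3.87% higher over all genes. Their median was 0.95, beside -0.17 over all genes. RpL41 (1724 against 622 CPM, 1.47) and RpP0 (6272 against 2365 CPM, 1.41) had the largest ratios, and RpL20 alone lay under 0, at -0.19. This count depended on weighting and scaling. In the mean over barcodes 1 of 73 passed with a median of 0.63, with CPM of all UMIs 2, with TMM factors 60 and with DESeq2 size factors 63, and without the deepest 5% of barcodes 11 passed. Translation factors followed with a median of 0.56 (4 of 19 higher, none lower), led by elongation factor 1 gamma (Ef-1g, 1.35) and elongation factor 2 (tef2, 1.24), and 0 of 19 passed in the mean over barcodes, 1 with CPM of all UMIs and 7 with TMM or DESeq2 factors.

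In the list for tRNA charging and for alanine, serine and glycine supply, 3 of 7 genes were higher and 1 lower, with a median of 0.72. All compared genes together had 3.87% higher and 18.6% lower. The 3 higher genes were all tRNA synthetases, and 1 of them charges phenylalanine. Alanyl-tRNA synthetase (LOC693023), which charges the tRNA of alanine, stood at 211 CPM in members, against 49.0 CPM in the other kept barcodes (2.11, interval 1.96 to 2.26). The beta subunit of phenylalanyl-tRNA synthetase (FRSB) reached 1.69 and seryl-tRNA synthetase (LOC101743384) 1.11. The alanine aminotransferase LOC101746890 was lower, at 66.2 against 165 CPM (-1.32), and was at 0.12 once TR and LSF marker barcodes were left out of the comparison. Serine hydroxymethyltransferase (LOC692975, 0.72) and phosphoserine aminotransferase (Psat1, 0.31), which make glycine and serine, did not pass.

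**Figure D3:**
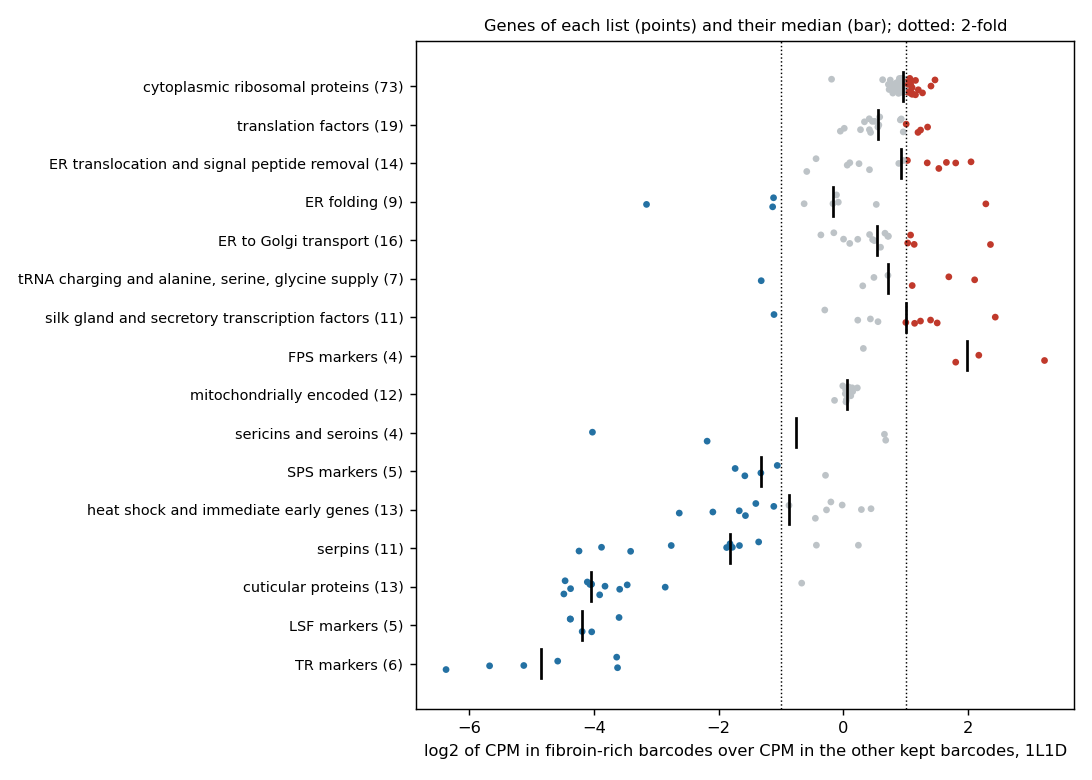
Log2 ratio of CPM outside fibroin, fibroin-rich over other kept 1L1D barcodes (x axis), for each gene with at least 100 UMIs in 1 group (points), by gene list (rows, number of genes in brackets), with the list median as a bar and 2-fold as dotted lines. Red points were at least 2-fold higher, blue points at least 2-fold lower and grey points neither. Ribosomal proteins cluster around 0.95, ER folding genes spread from Pdi at 2.29 to Fkbp13 at -3.16, and all LSF and TR markers lie under -3.

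Among transcription factors of the silk gland and of secretory cells, 11 of 16 reached the minimum, 6 were higher and 1 lower. The corresponding shares over all genes were 3.87% and 18.6%. In the mean over barcodes 3 were higher and none lower, with CPM of all UMIs 3 were higher, after thinning 0 of 7, and without TR and LSF marker barcodes 1 of 10. Dimm, whose Drosophila counterpart raises the secretory capacity of neuroendocrine cells, stood at 44.9 CPM in members, against 8.28 CPM in the other kept barcodes (2.44, interval 2.08 to 2.80). SGF1, the forkhead factor of the silk gland, stood at 128 against 45.2 CPM (1.51, interval 1.33 to 1.68), and a CREB3-like factor (LOC101735428) at 226 against 113 CPM (1.00). The other 3 were Rack1 (1.24), a scaffold on the ribosome, the mRNA export factor ALY (LOC733049, 1.14) and a zinc finger protein (LOC692655, 1.40), which are not silk gland selectors. The study had named these 3, along with Ybp, as factors found in FPS cells of these same libraries. Their calls are therefore a description and add no support to the list. Sage, which works with SGF1, did not pass (252 against 186 CPM, 0.44), and Fmbp-1, a fibroin-modulator-binding protein, was lower with 15 and 129 UMIs (-1.11). Awh, a LIM-homeodomain factor, fell short of the minimum with 51 and 20 UMIs (3.34, interval 2.57 to 4.17). SGF3, a POU factor linked to the sericin 1 gene, had 1 and 52 UMIs.

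The 12 highest genes by the naming rule included 2 homeobox genes, a trehalose transporter and a glucosyltransferase. LOC101746950, an uncharacterized protein-coding gene, had the most UMIs of them, at 2705 CPM in members, against 264 CPM in the other kept barcodes (3.36, interval 3.30 to 3.41). It was seen in 89.8% of members, and after thinning in 63.5% of members, against 15.8% of the other kept barcodes and 1.62% of TR marker barcodes. A homeobox gene of the sine oculis family (LOC101735990), known in flies from eye development, stood at 373 against 38.6 CPM (3.27, interval 3.13 to 3.42). Another homeobox gene, annotated as visual system homeobox 2 (LOC101740372), stood at 116 against 12.8 CPM (3.18, interval 2.92 to 3.44). Ugt2, a UDP-glucosyltransferase, stood at 1025 against 161 CPM (2.67), and a trehalose transporter of the Tret1 type (LOC101742153) had 115 against 42 UMIs (3.45, interval 2.92 to 3.99). The others were LOC105841524 (4.05), LOC105842244 (3.91), LOC692743 (3.41), LOC101746861 (3.23), LOC101737397 (125 against 54 UMIs), the long non-coding RNA LOC101745820 (2.70) and LOC110385433 (2.64). All 12 stayed at least 2-fold higher in every alternative in which they reached the minimum, with log2 ratios from 1.58 upward. The naming rule itself required 2-fold in the mean over barcodes, and most alternatives reuse much the same UMIs, so this is a description. LOC105841524, LOC105842244, LOC101742153, LOC101737397 and LOC110385433 reached the minimum only through the members, which favours calls of higher. Each had a UMI in 8.74 to 11.2% of members, against 0.947 to 2.53% of the other kept barcodes.

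**Figure D4:**
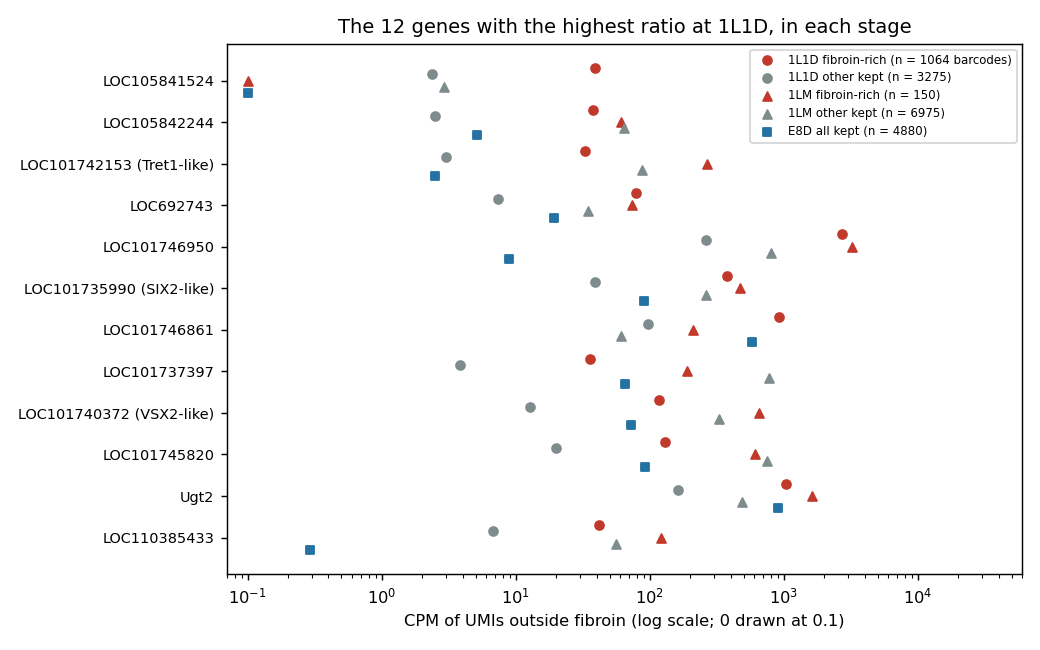
CPM of UMIs outside fibroin (x axis, logarithmic) of the 12 genes with the highest ratio at 1L1D (rows), in fibroin-rich and other kept barcodes at 1L1D (red and grey circles) and at 1LM (red and grey triangles) and in all kept E8D barcodes (blue squares). LOC101746950 is at 2705 CPM in 1L1D members and 3212 CPM in 1LM members, and LOC101737397 has its members above the others at 1L1D and below them at 1LM.

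The 12 lowest genes were nearly absent from members, so all of them reached the minimum only through the other kept barcodes. Btl, an FGF receptor that in Drosophila guides the branching of tracheae, had 3 UMIs in members, against 990 in the other kept barcodes (-6.37, interval -8.65 to -4.82). The zinc transporter LOC101740111 had 6 against 1911 UMIs (-6.32), Idgf, a secreted growth factor related to chitinases, 6 against 1274 UMIs (-5.74), and an angiotensin-converting enzyme gene (LOC101739932) 10 against 1579 UMIs (-5.31). LOC101744067 had 0 against 523 UMIs, which makes it at least 43.8-fold lower with 3 counts in place of 0. The others, the transporter LOC101743935, the convertase LOC101741624, ce-0330, LOC101744060, the trehalose transporter LOC101741931, the nesprin LOC101738051 and LOC101740358, had 2, 2, 3, 3, 5, 10 and 3 UMIs in members, against 681, 610, 598, 550, 775, 1480 and 437 in the other kept barcodes. The upper bounds of their intervals lay between -4.56 and -3.64. Btl and LOC101741624 are TR markers.

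Most of the cuticular protein genes that could be compared were lower in members. Of 13 cuticular protein genes that reached the minimum, of 205 listed, 12 were lower, with a median of -4.04, beside 18.6% lower over all genes. The size of this result depended on the minimum. With no minimum of UMIs 18 of 43 were lower and 1 higher, with a median of -0.67, beside 1529 lower of 9404 genes. Together the listed genes took 0.351% of UMIs in members, against 5.17% in the other kept barcodes. CPR90 stood at 586 against 12166 CPM (-4.38) and CPH21 at 1279 against 21074 CPM (-4.04). LSF markers differed alongside, at 0.0167% against 0.300%, and their part in the difference was not tested beyond leaving out their barcodes. Without TR and LSF marker barcodes among the others, 3 of 8 cuticular genes were lower with a median of -0.69, and CPG6 was at 0.05. The 11 serpins, inhibitors of serine proteases, held 9 lower genes with a median of -1.82, and in the same narrowed comparison 4 of 8 were lower with a median of -1.05. Of 13 heat shock and immediate early genes 6 were lower (median -0.87), but 2 in the mean over barcodes, 3 of 12 without the deepest 5% of barcodes and 0 of 10 after thinning.

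Markers of other tissues were measured as well, with no level at hand that a given share of such cells would bring. Of 4 fat body markers, 3 reached the minimum and 2 were lower, and their summed level was 0.0322% in members, against 0.118% in the other kept barcodes. Muscle myosin heavy chain (LOC100188972) and type IV collagen (Let-2) were at 0 in both groups. Muscle markers summed to 0.00528% against 0.00709%. The blood cell and basement membrane list summed to 0.0153% against 0.00632%, nearly all of it peroxidasin (LOC101736769), a basement membrane peroxidase, with 536 against 854 UMIs (1.32). The mitochondrially encoded genes made 9.37% of UMIs outside fibroin in members, against 9.05% in the other kept barcodes, and none of 12 passed 2-fold.

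Genes that were not in the rule differed between classes of fibroin share, which is a description because the classes come from the same cells. Over the share classes under 1%, 1 to 2%, 2 to 5%, 5 to 8%, 8 to 12%, 12 to 20%, 20 to 30% and from 30% up, Pdi stood at 367, 444, 841, 1187, 1484, 1857, 2884 and 3737 CPM. LOC101746861 stood at 66.3 CPM in the lowest class and 1884 CPM in the highest, and Sec61alpha at 197 and 1518 CPM. LOC101746950 behaved otherwise, at 41.04, 239, 1015 and 2050 CPM in the 4 classes under the threshold and at 2233, 2664, 2958 and 3198 CPM in the 4 classes above it. Dimm stood at 58.3 CPM from 5 to 8% (interval 42.8 to 77.5) and at 40.1 CPM from 8 to 12% (27.6 to 56.4), whose intervals overlap. Ribosomal proteins likewise made 42.9% of the other UMIs from 5 to 8% and 42.4% from 8 to 12%. The 344 barcodes from 5 to 8% thus had member-like levels of LOC101746950, dimm and ribosomal proteins, with less Pdi, Sec61alpha and LOC101746861. The sericin 1-like gene LOC101740082 stood at 17.2 CPM from 30% up, against 1110 CPM under 1%, with values of 56.0 and 94.0 CPM in the first 2 classes above the threshold.

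**Figure D5:**
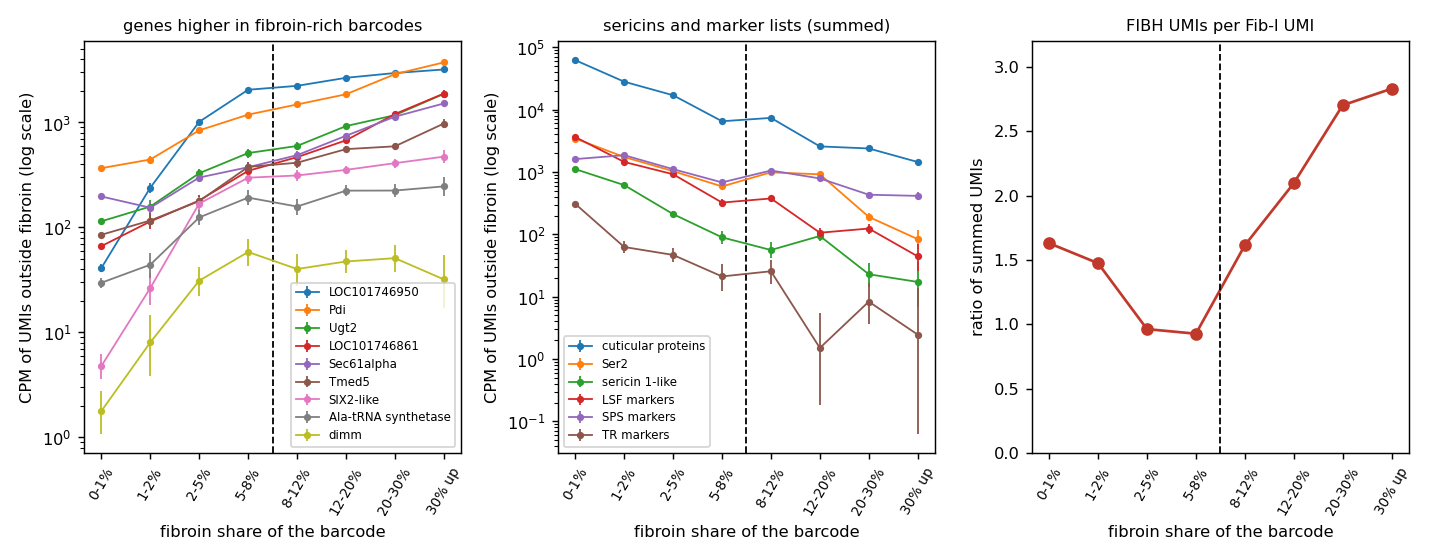
Left and middle, CPM of UMIs outside fibroin (y axis, logarithmic, bars are exact 95% Poisson intervals) of single genes and of summed lists in 8 classes of fibroin share of kept 1L1D barcodes (x axis). Right, FIBH UMIs per Fib-l UMI in the same classes, and the dashed line marks the 8% threshold. Pdi runs from 367 to 3737 CPM, while LOC101746950 reaches 2050 CPM already from 5 to 8%, where the FIBH ratio is lowest at 0.927.

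Depth moved with several of these results, and its part in them was not tested. In 4 classes cut at the quartiles of member depth the ribosomal list median was 0.35, 0.45, 0.74 and 1.18. That of the translocation list was 0.32, 0.56, 0.53 and 1.12, each against other barcodes of the same depth class. The FPS markers gave 1.35, 1.44, 1.87 and 2.29, and the cuticular proteins -1.89, -2.35, -3.25 and -4.70. The direction was the same in every class for these 4 lists, and all 4 were furthest from 0 in the deepest class. The number of ribosomal genes called higher was 0, 0, 4 and 65, among 72, 72, 72 and 73 compared. Over all genes 20, 19, 43 and 310 were higher and 136, 116, 247 and 944 lower, of 779, 716, 1125 and 4549 compared. The deepest class thus held most genes and most calls of both directions. Depth was not equal within it, with a median of 8679 UMIs in members and 10692.5 UMIs in the others. Its lower limit was 4818.25 UMIs, and TR marker barcodes outside the members had a first quartile of 7366 UMIs, so most of them fell in it. The make-up of the comparison group therefore changed with depth, and the parts of depth and of TR marker barcodes were not tested apart. Other lists changed sign. Heat shock genes gave medians of 0.04, 0.14, -0.11 and -1.11, with 0, 0, 0 and 7 called lower among 9, 9, 11 and 13 compared. Their calls thus appeared in the deepest class alone. The tRNA and amino acid list gave -0.08, -0.10, 0.52 and 0.98. Within members the median mitochondrial share was 21.7%, 15.6%, 9.04% and 3.51% from the shallowest to the deepest class, and pooled fibroin made 14.7%, 16.4%, 18.5% and 21.6% of UMIs. Combining the ratios within these classes, an alternative added after the data were seen, left 197 genes higher and 972 lower.

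Without TR and LSF marker barcodes, an alternative added after the data were seen, 3140 genes reached the minimum, against 5295 in the main comparison. Of the 3140 genes, 72 were higher and 370 lower, of which 61 were among the 205 higher and 260 among the 983 lower genes above. Fewer genes could thus be called here, and how many of the 205 and 983 fell under the minimum was not counted. The ribosomal median was then 0.53 with 1 of 73 higher, and the translocation median 0.23 with 3 of 14 higher. Tmed5 stayed at 1.26, Pdi at 1.87, Sec61alpha at 1.43, alanyl-tRNA synthetase at 1.26 and dimm at 1.38, whereas SGF1 was at 0.41 and heat shock genes were still lower for 7 of 12. Sericin differences grew, to -5.23 for the sericin 1-like gene and -3.39 for Ser2.

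The 251 deep fibroin-rich barcodes that the ratio filter had removed gave a separate set of cells of the same library. They were compared with the 118 removed barcodes that had under 8% fibroin and at most 30% mitochondrial UMIs, at median depths of 29220 and 36153.5 UMIs. Of 3118 genes, 195 were higher (6.25%) and 574 lower (18.4%). Of the 205 genes higher in members, 195 reached the minimum there and 131 were again higher. Of the 983 lower ones 481 reached it and 437 were again lower, and no gene was opposite. Pdi had a log2 ratio of 2.71, LOC101746950 of 4.36, Sec61alpha of 1.66 and dimm of 2.65, and the sericin 1-like gene of -8.05. The ribosomal median was 0.94 with 21 of 73 higher, and ribosomal proteins took 51.8% of UMIs outside fibroin in the fibroin-rich barcodes, against 27.0% in the rest. The translocation median was smaller than in members, at 0.54, with 4 of 14 higher and 1 lower. The median for transport from the ER to the Golgi was 0.19 with 2 of 16 higher. Of 7 folding genes 1 was higher and 3 lower, with a median of -0.86. These barcodes come from the same library and are no replicate of it.

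At 1LM the same rule gave 150 members, whose fibroin share was lower (median 9.19%), so the stages are set side by side without a comparison of sizes. There 133 of 6698 genes were higher in members (1.99%) and 1237 lower (18.5%). Of the genes higher at 1L1D, 200 reached the minimum at 1LM and 29 were again higher, while 10 were lower. Of those lower at 1L1D, 788 reached it, 381 were again lower and 4 were higher. Pdi stood at 1480 CPM in 1LM members, against 721 CPM in the other 1LM barcodes (1.04), and Tmed5 at 1097 against 536 CPM (1.03). LOC101746950 stood at 3212 against 797 CPM, and LOC101746861 at 209 against 60.8 CPM. Sec61alpha was at 324 against 262 CPM, SGF1 at 579 against 456 CPM and dimm at 99.5 against 79.5 CPM, none of which passed 2-fold. The translocation list had a median of -0.02 with 0 of 14 higher, and the ribosomal list 0.54 with 0 of 73 higher. Ser2 was lower in members at 1LM as well, at 2881 against 9465 CPM.

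In the E8D library, which had no member, all kept barcodes together held 686 CPM of Pdi, 369 CPM of Sec61alpha, 908 CPM of Ugt2 and 579 CPM of LOC101746861. LOC101746950 stood at only 8.90 CPM, LOC101735990 at 89.7 CPM and dimm at 14.3 CPM. These are averages over all cells of that library and cannot be set against members.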

How the data were processed

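Single-cell 3' RNA sequencing of silk gland cells was used from 3 libraries, 1 per stage. The deposited values are raw UMI counts per gene and barcode, made by the authors with Cell Ranger 3.1.0 and its STAR aligner on the assembly ASM15162v1, without normalization. Each table has 16880 rows, of which 4 are fibroin rows. The rows FIBH and FIBH-2 carry the same gene symbol, and how the counting split them was not tested. Total UMIs were 12579661 at E8D, 32588033 at 1L1D and 16578633 at 1LM, and the shallowest barcode held 500, 1104 and 816 UMIs.

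Barcodes were filtered and chosen as described above. UMIs were summed over a group and given as CPM outside the fibroin rows, with exact Poisson intervals for levels and exact binomial intervals for log2 ratios at 95%, using 3 counts in place of any smaller count. Genes with at least 100 UMIs in 1 group were compared. Named genes were the fibroin rows, the list members, and the 12 highest and 12 lowest ratios among genes past 2-fold in both the sums and the mean over barcodes. The members and lists were chosen with earlier results of these data known. Likely doublets were the 288 of 6000 barcodes with most simulated doublets among 50 nearest neighbours (scikit-learn 1.9.0). Alternatives changed the fibroin minimum, filters, doublets, scaling (edgeR 4.0.16 TMM and DESeq2 1.42.0 size factors on the 2 summed columns, with no model fitted), weighting, thinning and the comparison group. The ratio code was tested on simulated data. Gene roles came from general knowledge and the study's gene annotation, and sequences and coordinates were not used here. Python 3.11.15, scipy 1.17.1 and R 4.3.3 were used.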

Additional observations from a re-analysis of the deposited data

Results flagged for a closer look

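LOC101737397, an uncharacterized protein-coding gene, went opposite ways at 2 stages. It had 125 UMIs in the 1L1D members, against 54 in the other kept 1L1D barcodes, and 74 UMIs in the 1LM members, against 9558 in the other kept 1LM barcodes, a log2 ratio of -2.03. With 1 library per stage the difference between stages was not tested.

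The barcodes removed for a high ratio of UMIs to genes lie outside the main comparison, and those with at least 8% fibroin held 1851825 fibroin UMIs, against 875409 in the members.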

How the results depend on the processing

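No paired analysis was possible because each stage has 1 library. The counts of 205 higher and 983 lower genes and the list medians were recomputed under 19 alternatives. CPM of all UMIs gave 95 higher genes (median of all genes shifted by -0.31), TMM factors 314 (shifted by 0.15), DESeq2 size factors 340 (shifted by 0.18), the mean over barcodes 136, no minimum of UMIs 359 with 1529 lower, and a minimum of 20 UMIs 1529 lower. Higher calls were 17.3% of all calls, against 6.602% with CPM of all UMIs, 26.6% with TMM and 28.6% with DESeq2. Thinning to 500 UMIs gave 30 higher and 191 lower genes among 941 compared, and the removed barcodes 574 lower among 3118. The comparison without TR and LSF marker barcodes gave 72 higher and 370 lower among 3140, where the main comparison had 5295. A fibroin minimum of 20% left 327 members.

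The translocation median was lowest without TR and LSF marker barcodes (0.23) and was 0.54 in the removed barcodes. It crossed 1 at a fibroin minimum of 5% (1.01), with TMM (1.08), with DESeq2 (1.11) and against others under 2% fibroin (1.08). The ribosomal median did so in the same 4 settings (1.04, 1.11, 1.13 and 1.14) and with no quality filters (1.03). The transcription factor median fell under 1 at a minimum of 5% (0.88) and 20% (0.83), at most 20% mitochondrial UMIs (0.98), with CPM of all UMIs (0.70), in the mean over barcodes (0.68), after thinning (0.72), at 20 UMIs (0.81), with no minimum (0.61), against others under 2% (0.99), in the removed barcodes (0.82) and without TR and LSF marker barcodes (0.51). The sericin and seroin median passed -1 at a minimum of 20% (-1.75), with no quality filters (-3.82), with CPM of all UMIs (-1.07), at 20 UMIs (-2.15), with no minimum (-1.02), in the removed barcodes (-4.04) and without TR and LSF marker barcodes (-1.78). The heat shock median did so at 5% (-1.09), with CPM of all UMIs (-1.18), against others under 2% (-1.04), in the removed barcodes (-1.57) and without TR and LSF marker barcodes (-1.11). The cuticular median was -0.67 with no minimum and -0.69 without TR and LSF marker barcodes, where LOC101746890 (0.12), CPG6 (0.047) and the LSF markers LOC105841947 (0.28, also the list median), LOC101741350 (0.13) and LOC101736292 (0.36) changed sign. That last comparison group was defined by LSF markers, so their change follows from its construction, and the cause of the other changes was not tested.

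With 1 library per stage, no value here has an error between animals or preparations. Genes under the minimum were left out of the counts, although some of them differed past 2-fold: a minimum of 20 UMIs gave 285 higher genes.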

Other observations

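The FPS marker LOC101745332 stood at 231 CPM in the 1L1D members, against 51.1 CPM in the other kept barcodes, while all kept E8D barcodes together held 146682 CPM of it. At 1LM it stood at 143 CPM in members, against 178 CPM in the other kept barcodes.

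Of the ecdysone response genes, which carry the molting signal, 6 of 10 reached the minimum and 1 was lower in members (LOC692364, 19.6 against 40.2 CPM). That is 16.7% of the 6, near the 18.6% lower over all genes. The early gene Br-c stood at 37.5 against 23.3 CPM and E75 at 36.9 against 49.8 CPM, neither past 2-fold.

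Among the 14 genes that were past 2-fold in opposite directions at 1L1D and 1LM, trh-3 had 388 UMIs in the 1L1D members, against 3552 in the other kept barcodes, and 63 UMIs in the 1LM members, against 866 in the other kept 1LM barcodes (log2 ratios of -1.20 and 1.20). These genes were chosen after their values were seen.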
